A study of Homo sapiens with 6 samples.

Results

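The signal described here is nascent transcription over the 2000 bases in front of gene starts, positions -2000 to -1 of an average gene profile. These 2000 positions were taken, by position alone, from the 122001 positions of each profile, and the same positions were used in all 6 libraries. Each position holds 1 value per library, averaged over genes, so no value belongs to a single gene, and no sequence can be assigned to it. The files do not define position 0, which is treated below as the gene start.

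The libraries came from MRC5VA cells, an immortalised line of human lung fibroblasts. All 6 cultures were held in DRB (100 µM for 3.5 hours). They then received UVC (15 J/m2) or no irradiation before DRB was washed out, and nuclei were taken 10, 25 or 40 min later. In GRO-seq, polymerases engaged on DNA run on for 5 min in isolated nuclei and take up a brominated uridine, by which the nascent RNA is captured and sequenced. There is 1 library for each treatment at each time, so every comparison below is between single libraries, has no replicate check and has no p-value. The files hold no value per gene, so the cell line could not be checked against markers.

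RNA polymerase II starts transcription in both directions at most active human promoters. The polymerase facing away from the gene makes short, unstable upstream antisense RNA and usually stops early. DRB inhibits CDK9, the kinase of P-TEFb that releases paused polymerase into elongation, so that washout lets polymerases move off together. UVC makes pyrimidine dimers in DNA, which block an elongating polymerase. GRO-seq sees engaged polymerase at positions that leave little stable RNA, and upstream antisense transcription is a well-known part of its signal. The libraries were made strand-specific, but each is deposited as 1 profile, so the strand of the upstream signal was not analysed here.

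The upstream signal was high 10 min after washout and fell with time in both treatments. The untreated libraries had means of 5.01, 2.01 and 1.59 over the 2000 positions at 10, 25 and 40 min, on the deposited scale. The irradiated libraries had means of 5.62, 2.80 and 2.38. The irradiated library was the higher of the pair at every time, by 1.12-fold at 10 min, 1.39-fold at 25 min and 1.49-fold at 40 min. On the log2 scale these ratios are 0.17, 0.47 and 0.58. The direction held under every scaling tried, but the size at 25 and 40 min did not. It was 0.84 and 1.18 with each profile divided by its mean, and 1.17 and 2.33 with the distal level of each library subtracted. At these times the profile mean was 1.84 and 2.17 in untreated and 1.42 and 1.43 in irradiated cells. The distal level was also lower in irradiated cells. These scalings could therefore only raise the ratio at 25 and 40 min, so the direction there was not put to a check by them. The scale factor of each library is not stated, so heights compared between libraries rest on the authors' scaling, whereas shapes within a library do not.

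**Figure D1:**
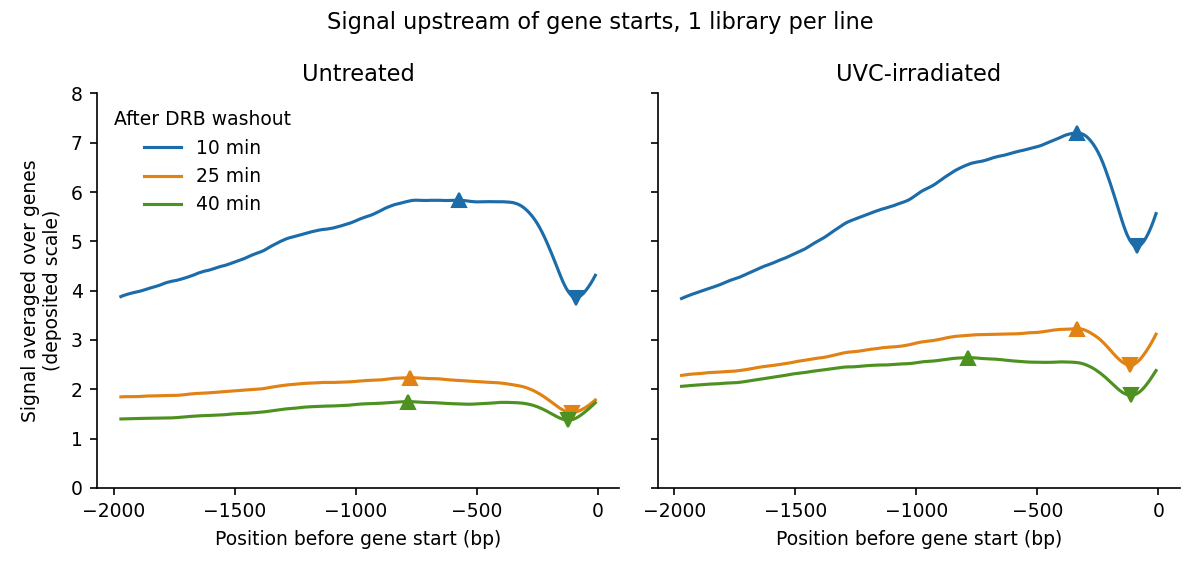
Signal averaged over genes (y axis, deposited scale, running mean of 51 bp) against position before the gene start (x axis, bp), with untreated libraries on the left and UVC-irradiated libraries on the right. Each line is 1 library, triangles pointing up mark the upstream peak and triangles pointing down the dip. The 10 min lines lie above the later ones, and all 6 lines dip between -121 and -90.

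The form of the upstream profile was shared by all 6 libraries. The signal climbed from the far end towards the gene, reached a top that differed in place and width between libraries, fell steeply, and passed through a narrow dip before it rose again into the gene. In the untreated 10 min library the deposited value was 3.81 at -2000, and the smoothed signal was 5.84 at its peak and 3.86 in the dip. In the irradiated 10 min library the value was 3.77 at -2000, with 7.20 at the peak and 4.90 in the dip. At this time the irradiated and untreated libraries thus started from nearly the same level at -2000 and separated on the way to the gene.

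The position of the peak differed between treatments at 10 and 25 min. The most prominent maximum of the smoothed signal lay at -575, -774 and -785 in the untreated libraries at 10, 25 and 40 min. In the irradiated libraries it lay at -337, -337 and -786. The irradiated peak was therefore 238 bp nearer to the gene at 10 min and 437 bp nearer at 25 min, and 1 bp away from the untreated one at 40 min. The peak height was 5.84, 2.23 and 1.75 in untreated and 7.20, 3.23 and 2.64 in irradiated cells.

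The top of the untreated 10 min profile was a plateau rather than a point. The smoothed signal stayed within 2% of its peak over the 539 bp span from -854 to -316, so its peak position is poorly fixed, and it moved to between -719 and -670 with other smoothing. The irradiated 10 min top was narrow by comparison, with a span of 149 bp from -431 to -283. At 25 min the spans were 289 bp in untreated and 193 bp in irradiated cells. At 40 min the untreated span reached 600 bp, from -905 to -306, but the signal did not stay within 2% throughout. In between it fell to 1.697 at -530, against a peak of 1.749, so this span was not 1 plateau. The irradiated 40 min span covered 273 bp from -902 to -630.

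This pattern can be described by the balance of a pair of stretches, here called shoulders, around -750 and around -350. Not every library had a maximum at both. The untreated 25 min signal fell from 2.23 at -750 to 2.09 at -350, and the irradiated 10 min signal rose from 6.61 to 7.19. The bins used to describe them, -800 to -701 and -400 to -301, were chosen after the profiles were seen. In the untreated libraries the far shoulder was 5.83, 2.23 and 1.74 at 10, 25 and 40 min, and the near shoulder was 5.77, 2.09 and 1.73. In the irradiated libraries the far shoulder was 6.61, 3.10 and 2.63 and the near one 7.18, 3.22 and 2.54. The near shoulder was thus 0.991, 0.938 and 0.993 times the far one in untreated cells, and 1.09, 1.04 and 0.966 times in irradiated cells. Irradiated libraries had the taller near shoulder at 10 and 25 min, and the far shoulder was the taller in the irradiated 40 min library and in every untreated library.

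**Figure D2:**
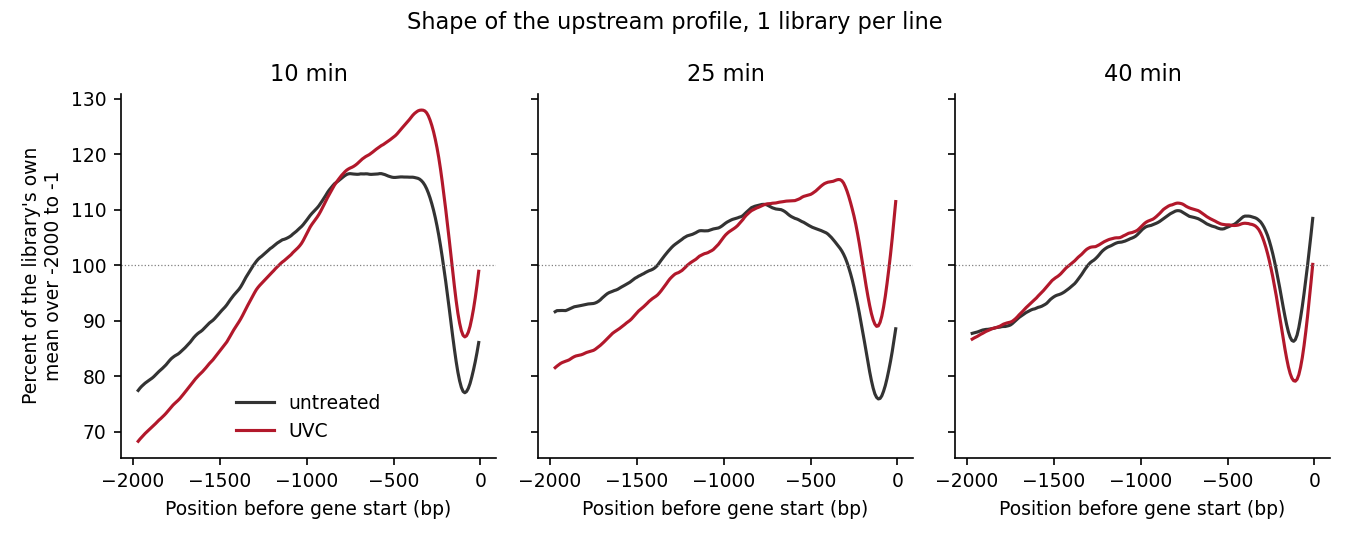
Upstream profile of each library as a percent of its own mean over -2000 to -1 (y axis) against position before the gene start (x axis, bp), at 10, 25 and 40 min; black lines are untreated and red lines irradiated libraries, 1 library per line. The irradiated line rises to 128% at -400 to -301 at 10 min, against 115% in the untreated library, and the lines lie closest together at 40 min upstream of the dip.

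Expressed against its own upstream mean, each profile loses its scale factor. On that basis the far end, -2000 to -1901, stood at 78.1%, 91.7% and 87.9% of the mean in the untreated libraries in order of time, and at 69.0%, 82.0% and 87.0% in irradiated cells. The near shoulder stood at 115%, 104% and 109% in untreated cells and at 128%, 115% and 107% in irradiated cells. The climb towards the gene was therefore steeper in the irradiated library at 10 and 25 min. From the first 100 bp bin to the peak the signal rose 1.49-fold, 1.21-fold and 1.249-fold in untreated cells and 1.86-fold, 1.41-fold and 1.28-fold in irradiated cells.

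The dip varied less in position than the peak. Its lowest point lay at -90, -107 and -121 in the untreated libraries at 10, 25 and 40 min and at -90, -117 and -112 in the irradiated ones. At no time did the members of a pair differ by more than 10 bp. The steepest fall into the dip lay between -196 and -173 in all 6 libraries, and the smoothed signal had fallen through the middle of the peak-to-dip height between -232 and -190. Judged over the whole profiles, each read appears to cover 250 bp, so features narrower than that are blurred.

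The depth of the dip varied between libraries. The dip stood at 3.86, 1.53 and 1.37 in untreated cells and at 4.90, 2.49 and 1.88 in irradiated cells. Relative to the peak of the same library it was 66.1%, 68.4% and 78.6% in untreated and 68.1%, 77.1% and 71.1% in irradiated cells. The shallowest dip in this sense was that of the untreated 40 min library, followed by the irradiated 25 min library. The first rank did not hold with the distal level of each library subtracted. The peak-to-dip ratio of the untreated 40 min library was then 15.1, the highest of all libraries. Relative to the signal on the gene side, at 100 to 199, the dip was 65.2%, 64.7% and 60.4% in untreated and 62.2%, 57.0% and 55.3% in irradiated cells. Against that side, the irradiated dip was the deeper at every time on the deposited scale. The distal level was not subtracted for this comparison. At 25 and 40 min the dip was at 118% and 102% of that level in untreated cells. In irradiated cells it was at 210% and 164%, so the order at these times is not fixed.

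Part of the later upstream signal was close to the level far inside the gene. The mean over the last 12 kb of the profile, used here as the distal background, was 1.13, 1.30 and 1.35 in the untreated libraries in order of time and 1.13, 1.18 and 1.15 in the irradiated ones. The untreated dip was at 342%, 118% and 102% of this background at 10, 25 and 40 min, and the untreated far end, -2000 to -1901, at 347%, 142% and 104%. In irradiated cells the dip was at 434%, 210% and 164%, and the far end at 343%, 194% and 180%. At 40 min the untreated signal at both places was thus close to the distal level of its own library, and the irradiated signal was above it. Whether the distal level was free of transcription was not tested. This level was itself higher in the untreated library at 25 and 40 min, which lowers the untreated percentages relative to the irradiated ones. Because of this, the peak-to-dip ratio of 1.27 in the untreated 40 min library became 15.1 once the background was subtracted, a value that divides by a remainder close to 0.

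The effect of UVC depended on distance from the gene. In the 500 bp windows from far to near, the irradiated signal at 10 min was 1.01, 1.07, 1.14 and 1.251 times the untreated signal. At 25 min it was 1.27, 1.32, 1.40 and 1.57 times. At 40 min it was 1.502, 1.53, 1.51 and 1.43 times. The excess in the irradiated library thus grew towards the gene at 10 and 25 min, whereas at 40 min it was nearly level over the far windows and smallest next to the gene.

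**Figure D3:**
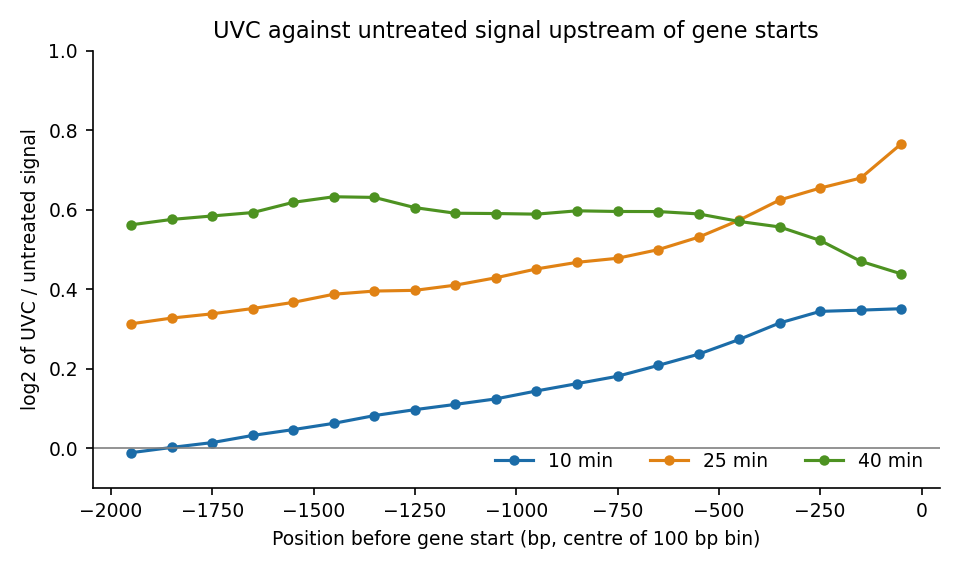
Log2 ratio of irradiated to untreated signal (y axis) in the 20 bins of 100 bp before the gene start (x axis, bp, bin centres), with 1 line for each time and 1 library per group behind each line. The 10 and 25 min lines rise towards the gene at every step, and the 40 min line is highest at -1500 to -1401 and falls in the bins next to the gene.

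In bins of 100 bp the trend was unbroken at the earlier times. The ratio rose at each of the 19 steps from bin to bin at 10 min, from 0.992 at -2000 to -1901 to 1.28 at -100 to -1. It also rose at each of the 19 steps at 25 min, from 1.24 to 1.70. At 40 min it rose at 6 of the 19 steps. It went from 1.48 in the first bin to a highest value of 1.55 at -1500 to -1401, and down to 1.36 in the last bin, its lowest value. The least-squares change of the log2 ratio per kb towards the gene was 0.20 and 0.21 at the earlier times and -0.051 in the 40 min pair. A scale factor cannot change these slopes. The negative slope at 40 min came from the 500 bp next to the gene: without those bins it was 0.0061 per kb. With the distal level subtracted the slopes at 25 and 40 min were 0.44 and -0.84. Neighbouring bins share reads and are not independent.

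How common such excesses were in the rest of the profile gives the background. At 10 min the irradiated signal was the higher in 19 of the 20 upstream bins, against 61.2% of all 1220 bins of the profile. It was over 25% higher in 3 upstream bins (15%), against 0.656% of all bins. With each profile divided by its mean, 25% of the upstream bins were. At 25 min it was the higher in all 20 upstream bins, against 18.7% of all bins, and over 25% higher in 19 of them, against 2.87%. At 40 min it was the higher, and over 25% higher, in all 20, against 6.23% and 4.26% of all bins. No upstream bin was over 20% lower at any time, while 8.61%, 28.4% and 52.4% of all bins were at 10, 25 and 40 min. The upstream bins are counted among all bins, and what 1 position covers overlaps with its neighbours.

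Peak and dip did not share the UVC effect equally. The peak of the irradiated library was 1.23, 1.45 and 1.51 times as high as that of the untreated library at 10, 25 and 40 min. The dip was 1.27, 1.63 and 1.37 times as high. On the deposited scale the dip had therefore gained more than the peak at 10 and 25 min and less at 40 min. With the distal level subtracted the direction held at 10 and 25 min but reversed at 40 min. The peak-to-dip ratio at 40 min was then 15.1 in untreated and 2.04 in irradiated cells. The untreated 40 min dip was at 102% of the distal level, so the direction at 40 min is not fixed. The peaks compared lay at different positions at 10 min (-575 and -337) and at 25 min (-774 and -337).

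The fall with time was also uneven along the upstream region. Over all 2000 positions the untreated signal at 25 min was 40.2% of that at 10 min, and at 40 min it was 31.8% of it. In irradiated cells these shares were 49.7% and 42.2%. Both shares of a treatment use its 10 min library. On the log2 scale the untreated signal changed by -1.32 and -1.65, and the irradiated signal by -1.01 and -1.24. With the distal level subtracted the changes were -2.44 and -3.99 in untreated and -1.48 and -1.87 in irradiated cells. Most of the loss had thus occurred by 25 min in both treatments.

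By window, the irradiated and untreated libraries lost signal in different places. At 40 min the untreated signal was 34.2%, 31.8%, 29.95% and 31.9% of its 10 min level in the 4 windows from far to near, a narrow range. The irradiated signal was 50.7%, 45.4%, 39.7% and 36.5% of its 10 min level, so that it had fallen further the nearer the window was to the gene. Between 25 and 40 min alone the untreated signal went to 76.0%, 77.0%, 78.2% and 85.6%, with the smallest loss next to the gene. The irradiated signal went to 90.2%, 88.8%, 84.3% and 77.8%, with the largest loss next to the gene. The order of the windows was thus opposite in the treatments over this interval.

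**Figure D4:**
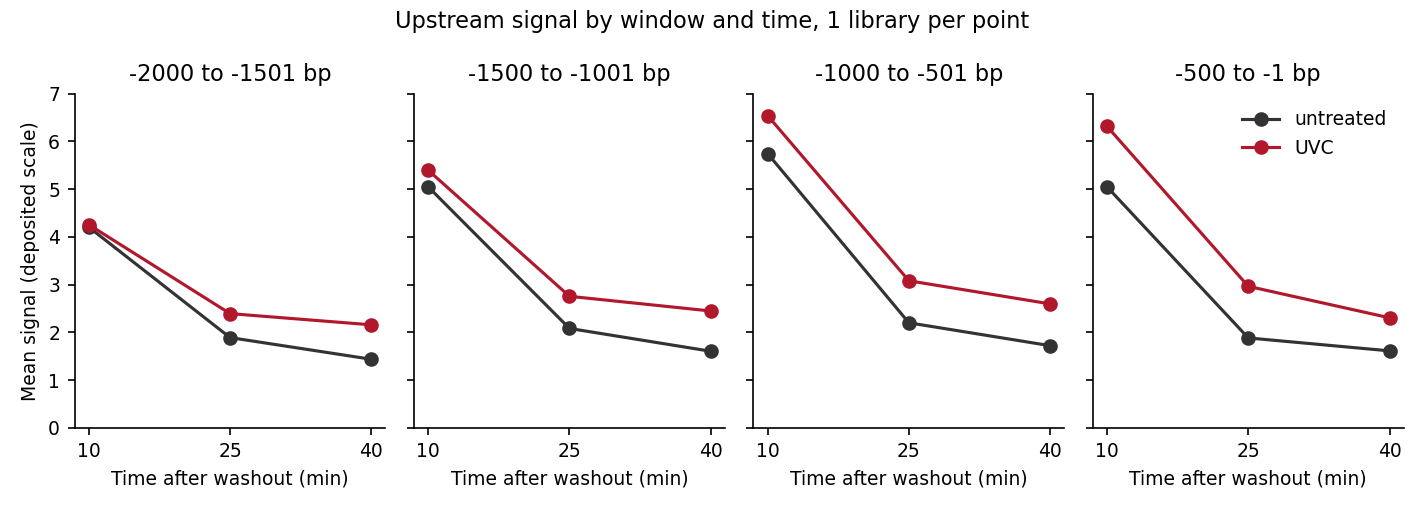
Mean signal (y axis, deposited scale) against time after washout (x axis, min) in the 4 upstream windows of 500 bp; black points are untreated and red points irradiated libraries, 1 library per point. The pair nearly coincides at 10 min from -2000 to -1501 (4.20 and 4.25) and is apart at 10 min from -500 to -1 (5.05 and 6.31).

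Next to the gene the values behind these shares were as follows. From -500 to -1 the untreated mean was 5.05, 1.88 and 1.61 at 10, 25 and 40 min, and the irradiated mean was 6.31, 2.96 and 2.30. From -2000 to -1501 the untreated mean was 4.20, 1.89 and 1.44, and the irradiated mean was 4.25, 2.39 and 2.16. In irradiated cells the near window therefore exceeded the far one by 2.06 on the deposited scale at 10 min and by 0.147 at 40 min.

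The upstream signal was next set against the signal at the same distance inside the gene, a ratio from which the scale factor cancels. The distal level does not cancel from it. In the first 500 bp on each side, the upstream mean was 85.8%, 79.2% and 72.2% of the downstream mean in the untreated libraries in order of time. It was 82.3%, 71.1% and 69.6% in irradiated cells. At 1.5 to 2 kb the upstream signal was 52.5%, 43.1% and 38.5% of the downstream signal in untreated and 54.3%, 44.5% and 40.2% in irradiated cells. The upstream side was thus the lower at both distances and lost ground to the gene side with time in both treatments.

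**Figure D5:**
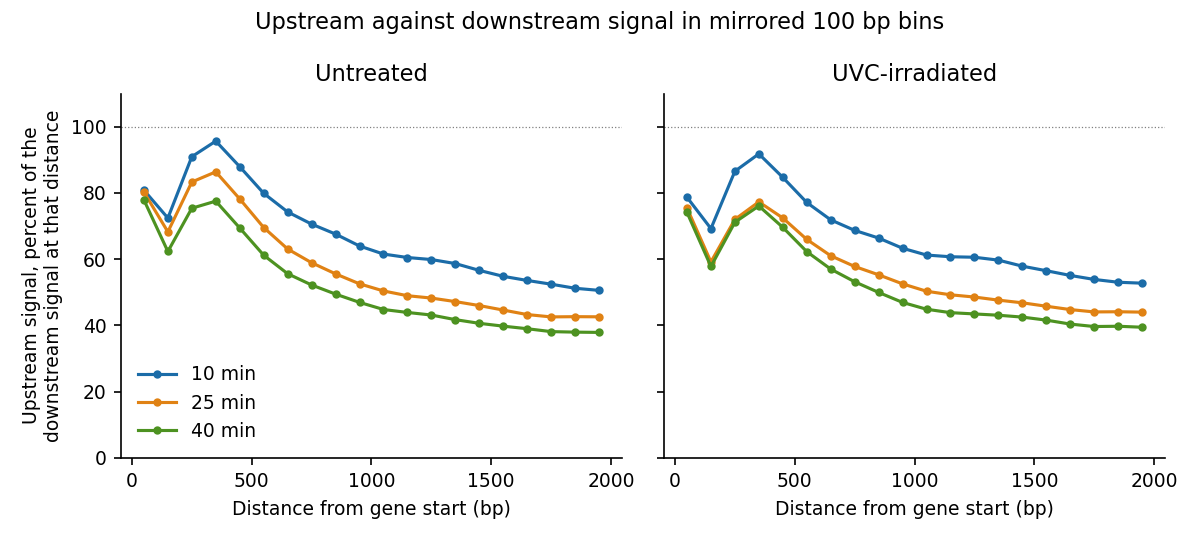
Upstream signal as a percent of the downstream signal at the same distance (y axis) in 100 bp bins by distance from the gene start (x axis, bp), for untreated libraries (left) and irradiated libraries (right), 1 line per library. No bin reaches 100%, the lines are highest at 300 to 399 bp in all libraries but the untreated 40 min one, and the 10 min lines lie above the later ones.

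No mirrored bin of 100 bp had more signal upstream than downstream in any library. The sides were closest at 300 to 399 bp in 5 libraries, the distance at which the near shoulder lies upstream. There the upstream signal was 95.6% and 86.3% of the downstream signal in the untreated 10 and 25 min libraries, and 91.8%, 77.3% and 76.0% in the irradiated ones at 10, 25 and 40 min. In the untreated 40 min library the closest bin was 0 to 99 bp (77.9%), with 77.5% at 300 to 399 bp. The share differed most between treatments at 200 to 299 bp at 25 min, where it was 83.3% in untreated and 72.0% in irradiated cells. The distal level was not subtracted here, and differences between treatments depend on it. Over the whole 2 kb at 25 min the share was 54.5% in untreated and 54.6% in irradiated cells. After subtraction it was 29.8% and 40.9%.

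The gradient of the UVC effect had a counterpart inside the gene. In successive windows of 500 bp from position 0 the irradiated signal at 10 min was 1.30, 1.16, 1.06 and 0.9798 times the untreated signal. At 25 min it was 1.75, 1.43, 1.31 and 1.22 times. The ratio thus declined with distance on both sides of position 0 at these times. At 40 min it was 1.48, 1.49, 1.501 and 1.44 times, nearly level, as it was upstream beyond 500 bp. Over the whole 2 kb the upstream and downstream ratios were close at every time, 1.12 and 1.11 at 10 min, 1.39 and 1.39 at 25 min and 1.49 and 1.48 at 40 min.

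The changes from bin to bin were correlated between libraries. The 19 changes between neighbouring 100 bp bins, on the log2 scale, had Pearson correlations of 0.708 to 0.995 over the 15 pairs of libraries, with a median of 0.921. Over the 16 changes that end at the bin starting at -400, before the steep fall, they were 0.751 to 0.964. These points share the genes averaged, the base composition and the overlap of reads, so the correlations are a description only. The course common to all libraries was not removed, so the recurrence of smaller steps was not measured.

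Which genes were averaged is not given in the sources used here. The annotation can therefore only describe what lies in this interval in general. In GENCODE release 44 mapped to GRCh37, 2967 protein-coding genes span at least 120 kb, the length of the profile. Of these, 17.1% have the start of a protein-coding or lncRNA gene on the opposite strand within the 2000 bases upstream, and 13.9% have one within the last 500 bases. Such starts were most frequent at -100 to -1 (5.26% of genes) and -200 to -101 (4.28%), the bins that hold the dip, and rare at -2000 to -1901 (0.101%). On the same strand 4.45% have another start upstream. Over all 20163 protein-coding genes the opposite-strand share was likewise 17.1%.

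The base composition changes across the same positions. In the long genes the mean G+C content was 41.8% at -2000 to -1901, 46.3% at -800 to -701, 52.2% at -400 to -301 and 64.0% at -100 to -1. T on the gene's sense strand, the base whose RNA counterpart is labelled by the brominated nucleotide in sense transcripts, went from 29.3% to 18.4% between the first and last of these bins. The dip lay in the bin -100 to -1 in the pair of 10 min libraries and in -200 to -101, with a G+C content of 59.5%, in the other 4. The part of annotated neighbours and of base composition in the profile was not tested.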

How the data were processed

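GRO-seq libraries of 51 bp single-end reads were made strand-specific, per the labels' protocols. BWA 0.5.9 and the builds hg19 and GRCh37 are named, per the submitters' processing notes. The deposited files give 1 signal value per position, averaged over genes, at 122001 positions from -2000 to 120000, per the file headers; gene set, strand handling, read extension and scaling are not given in the sources used here.

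All values (100%) were whole multiples of 1 step per library, within 0.01 step. Base-to-base changes along each whole profile, less their running mean over 201 bp, were most negatively correlated at a lag of 250 bp in all 6 libraries (-0.415 to -0.390; next lowest lag -0.060 to -0.025; lags to 400 bp). Blocks of 250 bp per read would give this. Over the upstream positions alone the lag was 125 bp in the irradiated 10 min library and 250 bp in the others. In that library the correlation at 250 bp was -0.173. If 1 step is 1 read of 250 bp over 1 base, the upstream positions hold 288076 to 914189 reads per library. The true depth is unknown, and no counting interval is given.

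Means over windows and bins of 100 or 500 bp, ratios without pseudocount, and profiles smoothed by a running mean of 51 bp were computed with Python 3.11.15, numpy 2.4.6, pandas 2.3.3 and scipy 1.17.1. The peak was the most prominent interior local maximum from -2000 to -1, and the dip the lowest point between it and position 0. A ratio past 1.25-fold was counted. The peak, dip and lag functions were tested on simulated data. Groups were taken from the source names. With 1 library per group no test was made and no gene was named. Windows, rules and alternatives were chosen with earlier results of these data known. Alternatives changed the scaling, window, summary, background, smoothing (25, 101 or 201 bp) and bin width. The distal background was the mean from 108001 to 120000.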

Additional observations from a re-analysis of the deposited data

Results flagged for a closer look

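The effect of UVC on the upstream signal had different signs at different times in 2 respects, neither of which was tested, since each group is 1 library. At the far end, from -2000 to -1901, the log2 ratio of irradiated to untreated signal was -0.012, 0.31 and 0.56 in order of time, and the first of these lies next to 0. With each profile divided by its mean that value was 0.053, so the sign did not hold under another scaling. The change of the log2 ratio per kb towards the gene went from 0.20 and 0.21 at the earlier times to -0.051 in the 40 min pair. Without the 500 bp next to the gene the last value was 0.0061, so its sign rests on those bins.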

How the results depend on the processing

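No paired analysis was possible because each group is 1 library and the labels carry no replicate numbers; leaving out a replicate was not possible for the same reason. A value was taken as moved when it changed by over 0.1 on the log2 scale, 51 bp or 1.5 times, since there is no replicate spread. The upstream signal was the higher in irradiated cells at each time under all 6 alternatives. It was also lower at 25 and 40 than at 10 min in both treatments under all of them. Given the profile means and distal levels, the scalings and the subtraction could only raise the ratio at 25 and 40 min. For the same reason they could only deepen the fall with time. Dip positions moved by less than 51 bp in all 24 alternative values.

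The log2 ratio of irradiated to untreated signal at 25 and 40 min became 0.84 and 1.18 on division by the profile mean, 0.61 and 0.81 on division by the distal background, and 1.17 and 2.33 on its subtraction. In the far 1 kb it was 0.061 at 10 and 0.37 at 25 min. The untreated log2 changes to 25 and 40 min became -1.64 and -2.22, -1.52 and -1.91, and -2.44 and -3.99 under the same 3 settings. The irradiated ones became -1.48 and -1.87 on subtraction and -0.91 and -1.07 in the far 1 kb, and in the near 1 kb that to 40 min was -1.39.

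The upstream percent of the mirrored signal of untreated libraries, in order of time, was 77.2, 67.1 and 60.6 within 1 kb, 56.1, 45.6 and 40.7 beyond it and 59.8, 29.8 and 12.9 after subtraction. In irradiated cells it was 75.1, 63.9 and 59.9, then 57.4, 46.6 and 41.9, then 61.2, 40.9 and 33.7. Medians gave 49.0 and 44.4 for untreated cells at 25 and 40 min.

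The untreated 10 min peak lay at -673, -719 and -670 with a running mean of 25 bp and the 2 wider ones and at -674 without smoothing. The peak-to-dip ratio after subtraction was 1.72, 4.05 and 15.1 in untreated and 1.61, 1.57 and 2.04 in irradiated cells. With the widest running mean it was 1.41 and 1.18 for the untreated 10 and 40 min libraries and 1.35, 1.20 and 1.30 for the irradiated ones. On division by the profile mean 25% of upstream bins were over 25% higher at 10 min, against 15%.

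The setting without smoothing and those that follow were added after the data were seen. Subtraction changed the gradient of the log2 ratio to 0.44 per kb at 25 and -0.84 at 40 min, and leaving out the 500 bp next to the gene gave 0.0061 at 40 min. From -2000 to -1901 the log2 ratio at 10 min became 0.053 on division by the profile mean. The near shoulder stayed on its side of the far one in all 12 alternative values. Subtracting the same level from both shoulders cannot change which is the taller, so only the values with wider shoulder bins could have differed.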
